A study of Mus musculus with 4 samples.

Results

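The response to bleomycin of lung cells sorted as group 2 innate lymphoid cells (ILC2s) was compared between 2 genotypes of mice as a difference of 2 ratios, gene by gene. For each gene, the log2 ratio of the bleomycin library to the PBS library was taken in WT mice and in *Hps1*-/- mice, and the first was subtracted from the second. Genes were included if they reached 1 CPM, the count of a gene scaled to the size of its library with TMM factors, in at least 1 of the 4 libraries, which held for 14840 of the 49315 genes in the count table. The genes nearest this limit were *2500004C02Rik* on the inside, with a highest CPM of 1.0006, and *Gm6185* on the outside, with 0.9998. All mice were on the C57BL/6 background. PBS-WT came from WT mice given PBS, PBS-HPS1 from *Hps1*-/- mice given PBS, BLEO-WT from WT mice given bleomycin and BLEO-HPS1 from *Hps1*-/- mice given bleomycin. Lineage-Thy1.2+ICOS+T1/ST2+ cells were sorted from the lungs and kept in culture with IL-2 before RNA was extracted, and each group was sequenced as 1 library. The number of mice behind each library was not given in the sources used here, and their age and the route and day of bleomycin were not stated for these libraries in particular. The libraries were made from 22405, 38873, 84166 and 128647 cells with WT before *Hps1*-/- in PBS and then in bleomycin, and all sets of 4 values below keep this order. Total counts were 72513619, 77703133, 87638154 and 77428740. No group had a replicate, so no value below has an error between mice, and the 95% exact intervals and the floor of 3 reads (0.0385, 0.0303, 0.0383 and 0.0475 CPM) cover counting error only.

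ILC2s are tissue-resident lymphocytes without antigen receptors that answer epithelial alarmins such as IL-33 with type 2 cytokines. Bleomycin is a drug that breaks DNA and is widely used to injure the mouse lung, which is followed by inflammation and fibrosis. HPS1 is a subunit of BLOC-3, a complex that activates Rab GTPases in the making of lysosome-related organelles, and its loss causes a form of Hermansky-Pudlak syndrome with lung fibrosis.

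The genotype labels were checked on *Hps1* itself, whose CPM was 38.3, 16.6, 48.4 and 21.3. It was lower in both *Hps1*-/- libraries, and its bleomycin ratio differed little between genotypes (log2 ratio 0.34 in WT and 0.36 in *Hps1*-/-). The ILC2 label was checked per kilobase of transcript, since only that scale allows levels to be compared between genes. *Gata3*, which encodes the master transcription factor of ILC2s, had a CPM per kilobase of 11.9, 12.2, 7.80 and 8.37, and *Il1rl1*, which encodes the IL-33 receptor T1/ST2, 7.72, 7.53, 7.03 and 4.48. The sort marker gene *Thy1* had 177, 119, 129 and 317, *Icos* 24.7, 23.9, 15.9 and 9.90 and *Il7r*, the IL-7 receptor gene of lymphocytes, 50.7, 57.9, 42.2 and 21.7. On the same scale, *Cd3e* of the T cell receptor complex had 32.8, 26.5, 27.4 and 52.8, the macrophage gene *Chil3* 2551, 2318, 2171 and 1142 and *Cd74*, the MHC class II invariant chain, 3114, 1669, 4935 and 8083. *Chil3* and *Cd74* were thus above the first 5 genes in every library, which goes against a population of ILC2s alone. The paper reports a high purity of the sorted cells. *Cd3e*, whose product the sort was meant to exclude, was above *Gata3*, *Il1rl1* and *Icos* but below *Thy1* in every library, and below *Il7r* in all but BLEO-HPS1. Of other genes whose products were to be excluded, *Itgam* (CD11b) had a CPM per kilobase of 21.3, 13.1, 50.5 and 32.2. On this scale *Ly6c2* (Ly6C) had 52.0, 23.3, 23.6 and 54.5 and *Ly6g* 4.31, 0.622, 2.47 and 1.13. In RNA of bulk samples, fewer cells of a type and less RNA per cell cannot be told apart.

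Both ratios were spread more widely in *Hps1*-/- than in WT mice. The log2 ratio was at least 1 in size for 2003 genes in WT and for 6806 genes in *Hps1*-/-, and its standard deviation over genes was 0.795 and 1.28. In the text, a rise or a fall is a log2 ratio past 1 in size, and the difference is the *Hps1*-/- ratio minus the WT ratio. The difference was at least 1 for 2423 of the 14840 genes (16.3%) and -1 or lower for 1655 (11.2%). Of these 4078 genes, 4046 had a 95% exact interval that excluded 0 and 2527 an interval wholly past 1. The median of all genes was 0.09 for the WT ratio, 0.25 for the *Hps1*-/- ratio and 0.15 for the difference under TMM scaling. Scaling by total counts gave -0.17, -0.39 and -0.23. Medians of lists below are to be read against these, and counts of list members against the shares of 16.3% and 11.2%. All lists and their members were chosen with earlier results of these data known, so such counts are descriptions only and not independent support. The split into higher and lower differences depended on the scaling. It was 1050 against 3347 with total counts, and 300 against 7325 when each library was centred on its cytosolic ribosomal protein genes, which shifted every difference by about -1.13. With this ribosomal centring the medians of all genes were -0.33, -1.31 and -0.98, and medians of lists with it are to be read against these. The split was 1752 against 2226 when both ratios were centred on their median gene, a setting added after the data were seen. Across the 14840 genes, Pearson's r between the 2 ratios was 0.616 and Spearman's rho 0.688. Genes are not independent, both ratios moved with GC content, and both bleomycin libraries came from more cells than their PBS libraries, so the correlation is a description only.

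Genes were sorted into classes by the size and direction of both ratios. The ratios were concordant, both past 1 in the same direction with a difference under 1, for 1036 genes (6.98%), 435 rises and 601 falls. They were past 1 in the same direction with a larger size in *Hps1*-/- for 322 genes and with a larger size in WT for 42. Only the *Hps1*-/- ratio was past 1, with a difference past 1, for 1778 rises and 1186 falls, and only the WT ratio for 78 rises and 206 falls. The ratios were past 1 in opposite directions for 80 genes (0.539%). Of these, 72 fell in WT and rose in *Hps1*-/- and 8 did the reverse. Of the rest, 386 had neither ratio past 1 but a difference past 1. Immunoglobulin genes, between which reads may be misassigned because the copies are so alike, made up 38 of the 80, against 141 of all genes compared.

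**Figure D1:**
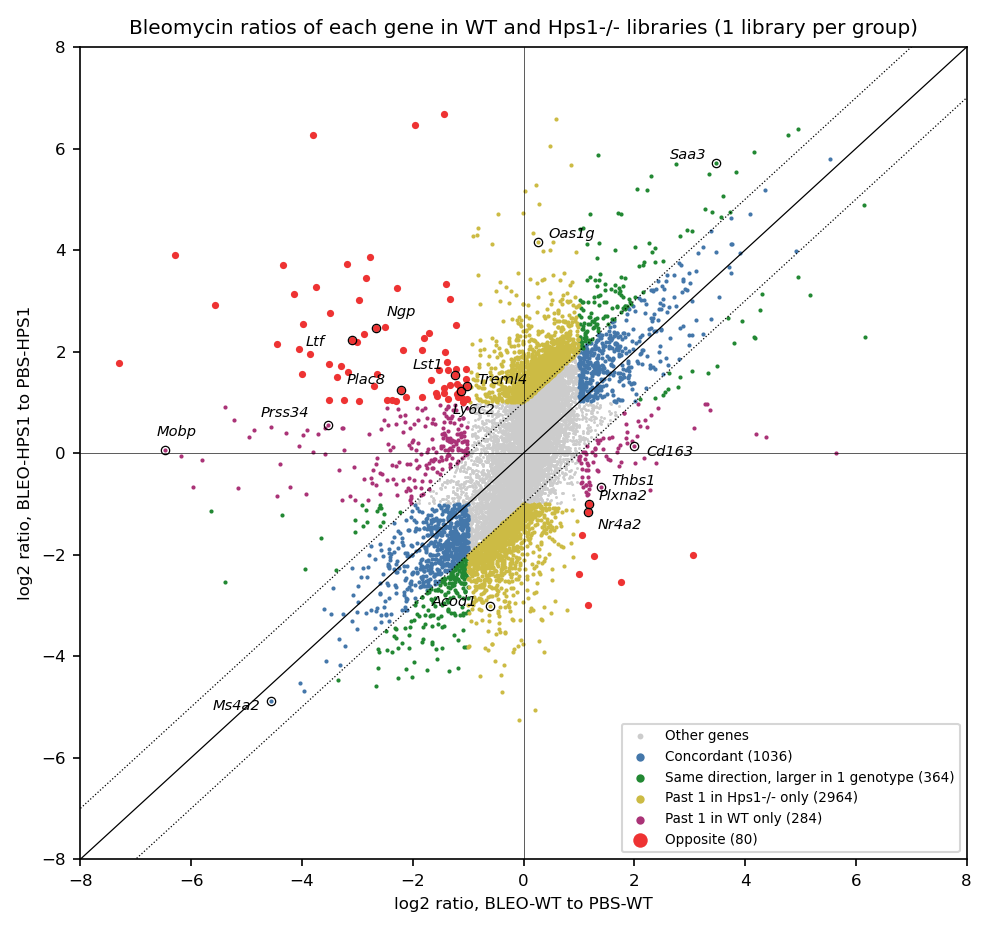
Log2 bleomycin ratio of each of the 14840 genes in WT (horizontal axis) and *Hps1*-/- libraries (vertical axis), with 1 library per group. Points are coloured by class, the solid line marks equal ratios, the dotted lines a difference of 1 in size, and circled genes are named in the text. The cloud is taller than it is wide, and the 80 genes with opposite ratios lie mostly in the upper left.

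Which libraries set a difference was read from 2 gaps between genotypes. The difference of a gene equals its bleomycin gap (the log2 ratio of *Hps1*-/- to WT after bleomycin) minus its PBS gap (the same after PBS). Of the 4078 genes past 1, the bleomycin gap alone was past 1 for 1643 (40.3%) and the PBS gap alone for 314 (7.70%). Both gaps were past 1 for 250 genes and neither for 1871. Over all genes compared, the PBS gap alone was past 1 for 410, the bleomycin gap alone for 2155 and both for 372. For each gene the odd library was also taken, the 1 whose log2 CPM lay farthest from the median of the other 3. Among the 4078 genes it was BLEO-HPS1 for 3027 (74.2%), PBS-HPS1 for 557, PBS-WT for 252 and BLEO-WT for 242. Among all genes it was BLEO-HPS1 for 8536 (57.5%), PBS-HPS1 for 21.9%, BLEO-WT for 11.5% and PBS-WT for 9.10%. Odd libraries in lists below are to be read against these shares. With the correction for GC content and length described below, BLEO-HPS1 was the odd library for 1382 of the 2391 genes past 1 (57.8%), near its share of all genes. Among classes of over 100 genes, a PBS library was the odd library most often in that of falls in WT alone. Of its 206 genes, 100 had a PBS gap alone past 1, and PBS-WT was the odd library for 136.

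The difference moved with transcript length and GC content. Spearman's rho across genes was 0.475 with GC content and -0.440 with length. The median difference ran from -0.58 in the decile of genes with the lowest GC content (median 39.6%) to 0.71 in the decile with the highest (59.6%), and from 0.91 for the shortest transcripts (median 759.5 bases) to -0.67 for the longest (8158). After a loess correction of each library for GC content and length, rho with GC content was 0.0563 and the medians of the GC deciles lay between 0.08 and 0.23. Such a correction takes out these trends by construction, whatever their source. With the correction, 1478 genes had a difference of at least 1 and 913 of -1 or lower. Of the 2423 higher genes 1015 kept this, of the 1655 lower genes 667, of the 80 opposite genes 45 kept their class and of the 1036 concordant genes 489. The genes of rises in *Hps1*-/- alone had a median difference of 1.29, which was 0.77 with the correction, while those of falls in WT alone had 1.81 and 1.84. For single genes below, the corrected difference is given where it ended a difference past 1 or changed one by over 1.5 times. Rises and falls are called without the correction.

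**Figure D2:**
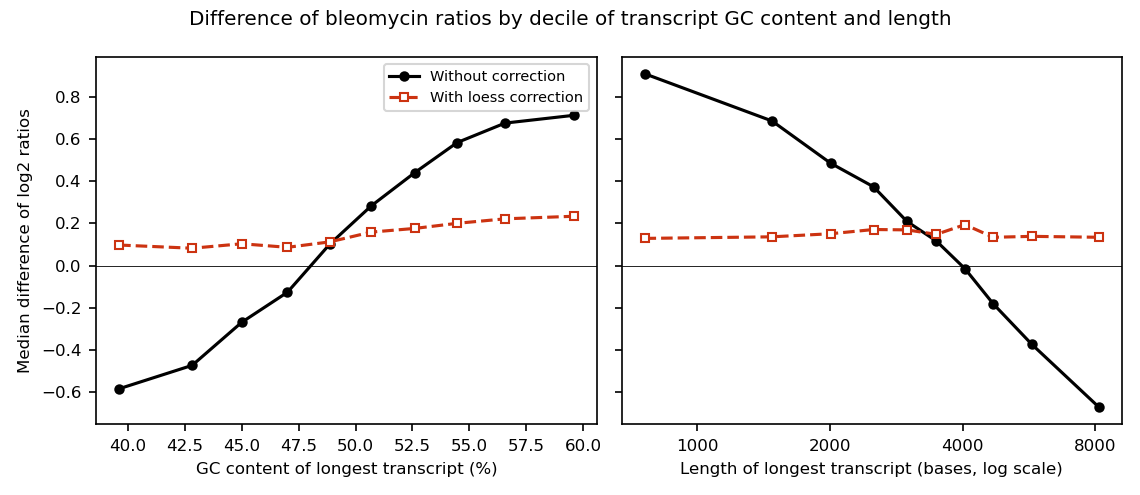
Median difference of log2 bleomycin ratios (*Hps1*-/- minus WT) in deciles of the genes ordered by GC content (left, percent) and by length of the longest transcript (right, bases on a log axis), without correction (filled circles) and with the loess correction (open squares). Without correction the medians ran from -0.58 to 0.71 along GC content.

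Among opposite genes past the limit of 10 CPM for naming, the neutrophil granule genes *Ltf* and *Ngp* had the largest differences, with PBS-WT the highest and PBS-HPS1 the lowest library. *Ltf* (ENSMUSG00000032496 on chromosome 9 from 111019271 to 111042767, plus strand, positions of GRCm38) encodes lactoferrin, an iron-binding protein of secondary granules. Its CPM was 70.0, 2.87, 8.11 and 13.6. The log2 ratio was -3.10 in WT and 2.24 in *Hps1*-/-, a difference of 5.34 (95% exact interval 5.12 to 5.59), and the PBS gap was -4.60 against a bleomycin gap of 0.74. *Ngp* (ENSMUSG00000032484 on chromosome 9 from 110419747 to 110423012, plus strand) encodes neutrophilic granule protein and had a CPM of 74.8, 2.86, 11.7 and 15.8, with ratios of -2.67 and 2.46 and a difference of 5.13 (4.92 to 5.36). For both genes the 2 bleomycin libraries differed by less than 1 on the log2 scale, and the PBS libraries by more than 4. The ratios of both kept opposite signs under all 7 other scalings, prior counts and corrections that were tried. *Camp*, the cathelicidin gene, also fell in WT and rose in *Hps1*-/- at lower levels, with 677, 21, 93 and 162 reads, a CPM of 8.68, 0.212, 1.19 and 2.56 and a difference of 6.29 (5.71 to 7.26), but its bleomycin gap was past 1 as well (1.10). *Prtn3*, which encodes proteinase 3 of primary granules, had a CPM of 4.02, 0.555, 2.83 and 5.32 and rose in *Hps1*-/- alone (3.20) from a low PBS-HPS1 library, while *Mpo*, myeloperoxidase, had 132, 21, 7 and 19 reads and fell in WT alone (-3.91).

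Genes of mature neutrophils were not past the threshold in opposite directions. *S100a8*, part of the calprotectin dimer, had a CPM of 325, 60.0, 188 and 82.5 and ratios of -0.79 and 0.46, a difference of 1.24 that was 0.66 with the correction. *Csf3r*, the G-CSF receptor, had 314, 152, 178 and 99.8 and ratios of -0.81 and -0.61. The chemokine receptor gene *Cxcr2* fell in both genotypes, with 96.4, 35.3, 45.7 and 13.7 CPM and ratios of -1.08 and -1.37. For all 3 genes PBS-WT had the highest level. *Acod1*, which encodes the itaconate-producing enzyme of activated myeloid cells, went the other way, at 58.1, 56.4, 38.2 and 6.95 CPM, and was low in BLEO-HPS1 alone (difference -2.41, -2.57 to -2.26). Of the 23 neutrophil genes compared, 9 had a difference of at least 1 and 3 of -1 or lower (all genes, 16.3% and 11.2%), with a median of 0.56 that was 0.10 with the GC and length correction and turned to -0.57 with ribosomal centring. Their summed CPM was 2271, 933, 1536 and 836. Per kilobase, *S100a9* was the most abundant in every library, and none of them was at 0 in any library.

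The other 4 genes named for a fall in WT and a rise in *Hps1*-/- are expressed in monocytes, and in 3 of them both gaps were past 1. *Plac8* (ENSMUSG00000029322 on chromosome 5 from 100553725 to 100572245, minus strand), which is high in classical monocytes, had a CPM of 298, 103, 64.2 and 244. Its ratios were -2.21 and 1.24, a difference of 3.46 (3.40 to 3.51), with a PBS gap of -1.53 and a bleomycin gap of 1.93. *Ly6c2* (ENSMUSG00000022584 on chromosome 15 from 75108158 to 75111970, minus strand), the gene of the monocyte marker Ly6C, had 139, 62.5, 63.4 and 146 CPM and ratios of -1.14 and 1.22, a difference of 2.36 (2.29 to 2.43). The levels of both genes crossed between genotypes, being higher in WT with PBS and higher in *Hps1*-/- with bleomycin. *Ly6c1*, a near-identical copy with which reads can be shared, rose in both (1.38 and 2.28), so the 2 values are uncertain. *Lst1* (ENSMUSG00000073412 on chromosome 17 from 35185095 to 35188439, minus strand), a small transmembrane protein gene of myeloid cells, had 27.1, 12.2, 11.4 and 35.3 CPM and a difference of 2.77 (2.62 to 2.93), which was 1.76 with the correction. *Treml4* (ENSMUSG00000051682 on chromosome 17 from 48264295 to 48275360, plus strand), a receptor gene of nonclassical monocytes, had 37.2, 23.2, 18.4 and 58.2 CPM and a difference of 2.34 (2.23 to 2.47), and here only the bleomycin gap was past 1 (1.66). With ribosomal centring the *Hps1*-/- ratios of these 4 genes were -0.31, -0.33, -0.03 and -0.23, so the signs were then no longer opposite. With the GC and length correction the *Hps1*-/- ratios were 0.75 for *Plac8*, 0.41 for *Lst1* and 0.77 for *Treml4*, under the threshold.

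Genes of neurons were also among the opposite genes, and they are named here after their values were seen. *Nfasc*, which encodes neurofascin at the nodes of axons, had 426, 52, 42 and 113 reads, a CPM of 5.46, 0.525, 0.536 and 1.79 and ratios of -3.29 and 1.72, a difference of 5.01 (4.43 to 5.82). The microtubule protein gene *Map1a* had 7.39, 1.86, 2.93 and 4.72 CPM and ratios of -1.33 and 1.33, and the stathmin gene *Stmn4* 183, 15, 16 and 30 reads and a difference of 4.87 (3.91 to 6.45). PBS-WT was the highest library for all 3. Of the 80 opposite genes, 62 had at least 10 reads in every library, and 38 of these were not immunoglobulin genes. In 12 of the 80, a library held 3 reads or fewer, and their ratios rest on those few reads.

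The list of monocyte and interstitial macrophage genes held several of these patterns. Of its 25 genes, 11 had a difference of at least 1 and 2 of -1 or lower, with median ratios of 1.29 in WT and 1.39 in *Hps1*-/-. The median difference of 0.78 was 0.30 with the correction and turned to -0.35 with ribosomal centring. The complement gene *C1qa* of tissue macrophages had a CPM of 143, 73.2, 1391 and 2047 and rose in both genotypes, by 3.28 and 4.80, and *Apoe*, the apolipoprotein of lipid-laden macrophages, had 1029, 548, 12175 and 13689 and rose by 3.56 and 4.64. For both, PBS-HPS1 was the odd library and neither gap was past 1. With the correction their differences were 0.64 and 0.30. *Cd163*, the hemoglobin scavenger receptor gene, had a CPM of 33.4, 24.8, 134 and 27.4. It stood apart in BLEO-WT alone, with ratios of 2.00 and 0.14 and a difference of -1.86 (-1.97 to -1.75). *Lyve1*, a hyaluronan receptor gene found on perivascular macrophages and lymphatic endothelium, had 45.3, 73.8, 138 and 92.6 CPM and rose in WT alone (1.60 against 0.33). The summed CPM of the list was 14421, 9251, 35598 and 37498, with *Apoe* the most abundant per kilobase in BLEO-HPS1, *Lyz2* in the other 3 libraries and no gene at 0.

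**Figure D3:**
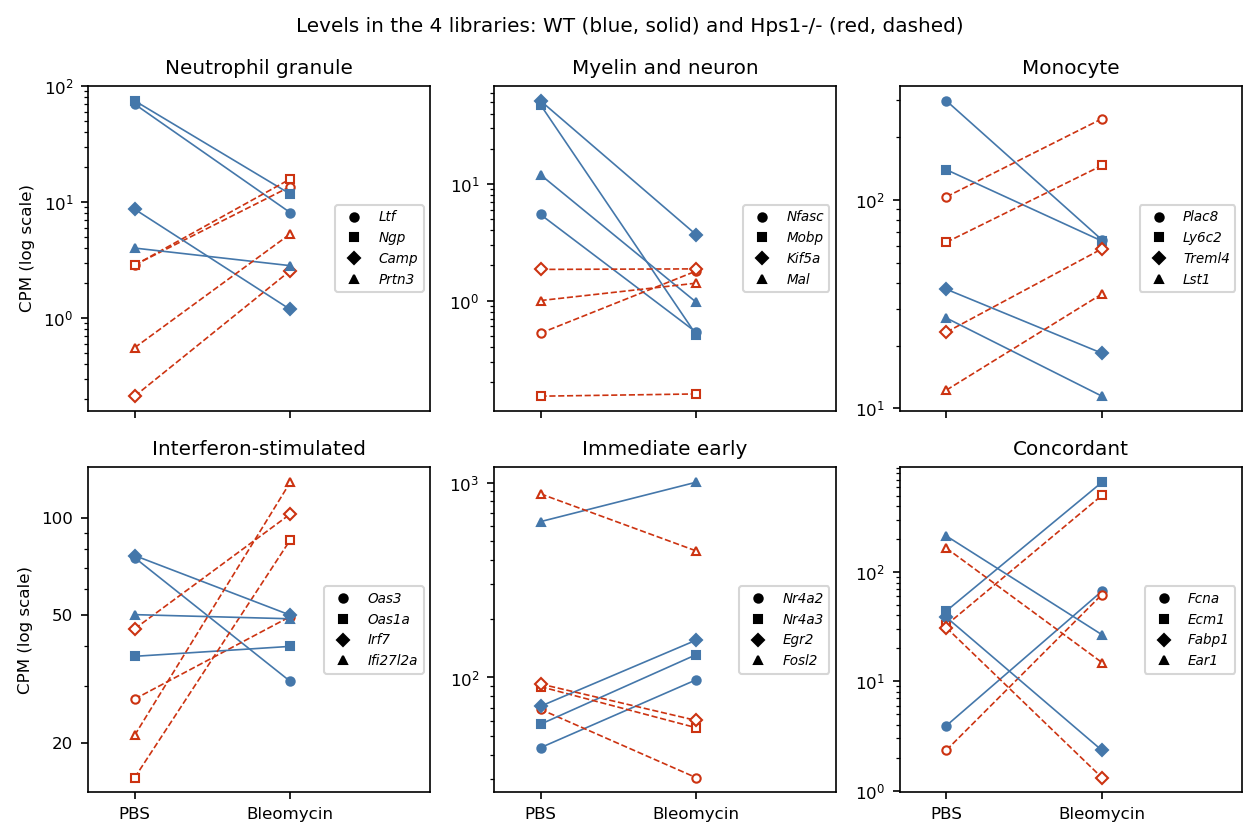
CPM (log axis) of 24 genes in the 4 libraries, from PBS to bleomycin, in WT (blue, solid lines) and *Hps1*-/- mice (red, dashed lines), with 1 library per point and 1 marker shape per gene. The genes shown are picked examples and not whole lists. The monocyte and concordant genes were taken from the opposite and concordant classes, so their opposite or parallel directions follow from that choice. The granule and monocyte genes shown cross between genotypes, and the myelin and neuron genes shown are high in PBS-WT alone.

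Only 2 protein coding genes past the level limit for naming rose in WT and fell in *Hps1*-/-. *Nr4a2* (ENSMUSG00000026826 on chromosome 2 from 57106830 to 57124003, minus strand) encodes an orphan nuclear receptor that is transcribed within minutes of cell activation, and its CPM was 43.6, 68.7, 97.3 and 30.6. Its ratios were 1.16 and -1.16, a difference of -2.32 (-2.42 to -2.23), with a bleomycin gap of -1.67 and a PBS gap of 0.65. BLEO-WT was the highest and BLEO-HPS1 the lowest library, and with the correction the *Hps1*-/- ratio was -0.92. *Plxna2* (ENSMUSG00000026640 on chromosome 1 from 194618218 to 194816869, plus strand), a semaphorin receptor gene, had a CPM of 6.29, 13.5, 14.2 and 6.74 and a difference of -2.17 (-2.40 to -1.96), with both gaps past 1. Its transcript is long, and with the GC and length correction the *Hps1*-/- ratio was 0.21 and the difference -1.34.

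Other immediate early genes, which cells transcribe on activation or stress without new protein, leaned the same way as *Nr4a2*. The list of 28 compared genes, and the counts from it, include *Nr4a2* itself. Of the 28, 7 had a difference of -1 or lower and 0 of at least 1, against 11.2% and 16.3% of all genes. A positive ratio in WT and a negative one in *Hps1*-/- was found for 13, while 79.1% of all genes had ratios of the same sign. The median ratio was 0.59 in WT and 0.00 in *Hps1*-/-, and the median difference of -0.36 was -0.89 with the correction. *Nr4a3*, of the same receptor family, had a CPM of 57.6, 89.8, 131 and 55.2 and ratios of 1.18 and -0.70. The zinc finger factor gene *Egr2* had 71.2, 92.6, 155 and 60.2 and ratios of 1.13 and -0.62, and *Fosl2* of the AP-1 family 630.3, 875, 1004 and 446 and ratios of 0.67 and -0.97. *Fosb* differed from these, since it was higher with bleomycin in both genotypes, at 575, 861, 1704 and 1348 CPM. The most abundant gene of the list per kilobase did not move apart, *Junb* having 2959, 2433, 4920.2 and 4687 CPM and a difference of 0.21. The summed CPM of the list was 18448, 17184, 28372 and 21692.

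Besides *Nr4a3* and *Cd163*, 2 genes were named for a rise in WT alone. *Thbs1* (ENSMUSG00000040152 on chromosome 2 from 118111876 to 118127133, plus strand) encodes thrombospondin 1, a matrix glycoprotein that activates latent TGF-β, and had a CPM of 464, 784, 1215 and 492. Its ratios were 1.39 and -0.67, a difference of -2.06 (-2.09 to -2.04). The clock gene *Per2* had 11.0, 18.4, 25.4 and 11.8 CPM, ratios of 1.20 and -0.64 and a difference of -1.84 (-2.01 to -1.67). For *Thbs1*, *Nr4a3*, *Cd163* and *Per2* the bleomycin gap alone was past 1 and BLEO-WT was the odd library. The NF-κB and inflammatory cytokine list, of which 8 of 30 genes had a difference of -1 or lower and 3 of at least 1, included *Il6*, with 26.2, 38.7, 36.5 and 13.3 CPM and ratios of 0.48 and -1.54, and *Il1a*, with 27.3, 31.9, 46.6 and 14.5 CPM and ratios of 0.77 and -1.13. Its median difference was -0.30, and -0.77 with the correction. The neutrophil-attracting chemokine gene *Cxcl2* had 706, 649.6, 1353 and 635 CPM, and *Ccl2*, which draws monocytes, 17.9, 15.7, 77.1 and 32.8, with a larger rise in WT (2.10 against 1.06).

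The largest difference among genes named for a change in WT alone lay in a gene of myelin, for which PBS-WT was the odd library. *Mobp* (ENSMUSG00000032517 on chromosome 9 from 120149707 to 120181484, plus strand) encodes myelin-associated oligodendrocyte basic protein and had 3710, 15, 40 and 10 reads, a CPM of 47.6, 0.151, 0.510 and 0.158. The WT ratio was -6.48, the *Hps1*-/- ratio 0.05 and the difference 6.53 (5.19 to 7.95). Both gaps were past 1, at -8.07 for PBS and -1.55 for bleomycin. The gene of the myelin and lymphocyte protein, *Mal*, had a CPM of 11.97, 0.9998, 0.969 and 1.41 and a difference of 4.08 (3.56 to 4.68). Both genes were under 2 CPM in the other 3 libraries.

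A list of 23 genes of oligodendrocytes, neurons and astrocytes was then drawn up, after these values had been seen. PBS-WT had the highest CPM for 20 of the 23, the others being *Cnp*, *Rbfox3* and *Gfap*. Of the 20 genes compared, 8 passed the limit of 1 CPM in PBS-WT only, so the limit itself favoured such genes. A difference of at least 1 was found for 19 of the 20, and for 11 of the 12 that passed the limit in another library, whose median difference was 1.71. Over all 20 genes the median ratio was -2.86 in WT and 0.07 in *Hps1*-/-, and over these 12 it was -1.54 and 0.07. The median difference of all 20 was 2.73, with 2.86 after the correction and 1.60 with ribosomal centring. These 3 values include the 8 genes that passed in PBS-WT only, so they do not show what either setting does to the other 12. The neuronal kinesin gene *Kif5a* had 4017, 183, 288 and 118 reads. *Mog*, a gene of the myelin surface, had 213, 5, 1 and 3 reads, and *Slc1a2*, the glutamate transporter gene of astrocytes, 1212, 131, 138 and 46. The summed CPM of the list was 753, 265, 319 and 414, and no gene was at 0 in any library. *Mbp* and *Cnp* together made up most of this sum in every library, so it says little of the other genes. Per kilobase, *Mbp* was the most abundant in the first 3 libraries, with 353, 164, 179.6 and 169.5 CPM, and *Cnp* in BLEO-HPS1, with 121, 77.9, 107 and 219. For 20 of the 23 genes, a library of sorted lung cells thus held myelin, neuron or astrocyte transcripts at a level that the other 3 libraries did not reach, and their part in other falls of the WT ratio was not tested.

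A basophil protease gene also fell in WT alone. *Prss34* (ENSMUSG00000056399 on chromosome 17 from 25298394 to 25300165, plus strand) encodes mouse mast cell protease 11 and had a CPM of 26.1, 1.87, 2.22 and 2.74, with ratios of -3.54 and 0.55 and a difference of 4.08 (3.72 to 4.49). PBS-WT again stood apart. Several other basophil and mast cell genes fell in both genotypes. *Mcpt8*, the classical basophil protease gene, had 11.6, 6.27, 1.49 and 1.14 CPM and ratios of -2.94 and -2.43, and *Ms4a2*, the β chain of the high-affinity IgE receptor, 10.2, 6.37, 0.408 and 0.190 CPM and ratios of -4.57 and -4.89. Of the 13 genes compared, 6 were concordant (all genes, 6.98%), 1 had a difference of at least 1 and 2 of -1 or lower. The median ratio was -1.76 in WT and -1.87 in *Hps1*-/-, and the summed CPM was 276, 252, 146 and 102. Per kilobase, *Prss34* was the most abundant in PBS-WT, *Hdc* in PBS-HPS1 and the transcription factor gene *Gata2* in both bleomycin libraries.

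Interferon-stimulated genes encode antiviral proteins and are switched on by type I and type II interferons. Of 43 compared, 22 had a difference of at least 1 and 1 of -1 or lower, against 16.3% and 11.2% of all genes. Ratios of the same sign were found for 79.1% of all genes. Of the 43, the ratio was negative in WT and positive in *Hps1*-/- for 22, and the reverse for 0. The median ratio was -0.72 in WT and 0.36 in *Hps1*-/-, and -0.99 and -0.29 with total counts, when both were negative. The median difference of 1.02 was 1.01 with the GC and length correction and 0.64 with total counts. With ribosomal centring its direction flipped to -0.11, against a median of all genes of -0.98. The median PBS gap was -0.67 and the median bleomycin gap 0.20. PBS-WT was the odd library for 20 genes (all genes, 9.10%) and BLEO-HPS1 for 15 (all genes, 57.5%). The summed CPM was 1938, 1210.0, 1248 and 1579.9, with no gene at 0.

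Single interferon-stimulated genes took several of the classes. *Oas3*, which encodes an enzyme that makes the activator of RNase L, had a CPM of 75.3, 27.3, 31.0 and 49.4. It fell in WT (-1.28) while its *Hps1*-/- ratio was 0.85, a difference of 2.13 (2.03 to 2.23). *Oas1g* (ENSMUSG00000066861 on chromosome 5 from 120876142 to 120887613, minus strand) had the largest difference among the genes named for a rise in *Hps1*-/- alone, with a CPM of 5.31, 0.767, 6.36 and 14.0 and ratios of 0.26 and 4.15 (difference 3.89, 3.54 to 4.34). It is a near-identical copy of *Oas1a*, which had 37.1, 15.6, 39.9 and 85.5 CPM and ratios of 0.10 and 2.46, so reads may be shared and both are uncertain. For both copies PBS-HPS1 was the lowest library. *Ifi27l2a* had 50.1, 21.1, 48.6 and 129 CPM and rose in *Hps1*-/- alone by 2.62, with a difference of 2.66 that was 1.66 with the correction. *Irf7*, the transcription factor that amplifies interferon production, had 76.5, 45.2, 49.9 and 103 CPM and ratios of -0.62 and 1.19. *Cxcl9*, a chemokine gene induced by interferon-γ, had 9.71, 2.48, 4.23 and 5.38 CPM and *Ifit3b* 4.03, 1.59, 1.87 and 3.23, and both fell in WT and rose in *Hps1*-/-, with differences of 2.30 and 2.11. *Slfn4* went against the list, falling in both genotypes and more in *Hps1*-/-, with 37.5, 24.5, 9.004 and 2.26 CPM and a difference of -1.36 (-0.83 with the correction).

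Promoters of these genes were read for the sequence to which interferon regulatory factors bind. The 250 bases before the start of each gene, from RefSeq on GRCm38.p6, were searched on both strands for 2 copies of GAAA set 2 bases apart, the core repeat of the interferon-stimulated response element. It was found in 18 of the 33 interferon-stimulated genes for which a promoter was at hand (54.5%) and in 936 of the 27025 genes searched (3.46%). The median difference was 0.90 over the 18 genes with a match and 1.10 over the 15 without, and the split was not tested. The promoters of the 3 genes with a match and the largest differences are shown to place the repeat, with each match in capitals. They lie at chr5:120907526-120907775 (minus strand) for *Oas1a*, with 2 overlapping matches, chr5:120777660-120777909 (minus strand) for *Oas3*, with 1 match, and chr19:34607707-34607956 (plus strand) for *Ifit3b*, with 2 matches to the reverse complement. A match is a description of these letters and not a measured binding site.
Oas1a: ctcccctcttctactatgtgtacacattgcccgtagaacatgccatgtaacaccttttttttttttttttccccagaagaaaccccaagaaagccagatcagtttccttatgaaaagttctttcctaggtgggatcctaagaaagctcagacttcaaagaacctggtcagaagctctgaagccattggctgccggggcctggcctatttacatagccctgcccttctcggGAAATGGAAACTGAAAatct
Oas3: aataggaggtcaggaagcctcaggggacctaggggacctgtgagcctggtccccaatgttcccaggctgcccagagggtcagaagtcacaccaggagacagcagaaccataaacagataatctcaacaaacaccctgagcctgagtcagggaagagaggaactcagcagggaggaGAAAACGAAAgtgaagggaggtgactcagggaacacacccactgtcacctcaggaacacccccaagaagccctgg
Ifit3b: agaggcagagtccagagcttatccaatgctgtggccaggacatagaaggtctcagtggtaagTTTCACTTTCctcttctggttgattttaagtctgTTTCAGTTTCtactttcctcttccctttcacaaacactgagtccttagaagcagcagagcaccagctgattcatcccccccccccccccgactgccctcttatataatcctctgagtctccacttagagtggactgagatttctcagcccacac

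MHC class II genes rose in *Hps1*-/- and stayed under the threshold in WT for 10 of 11 members. The member under the threshold in both was *H2-Ob*, with a difference of 0.72. They encode the molecules that present extracellular antigen to CD4 T cells. *H2-Ab1* had a CPM of 2073, 1072, 3634 and 6406, with ratios of 0.81 and 2.58 and a difference of 1.77 (1.76 to 1.78) that was 0.95 with the correction. *Cd74* had 4391, 2353, 6958 and 11397 CPM and a difference of 1.61 (0.85 with the correction), and *Ciita*, the transactivator of the whole class, 99.3, 59.0, 116 and 139 and a difference of 1.004. PBS-HPS1 was the lowest and BLEO-HPS1 the highest library for all 3. The median difference of 1.59 was 0.99 with the correction, when 5 of 11 stayed at 1 or above, and 0.46 with ribosomal centring. The median PBS gap was -0.84 and the median bleomycin gap 0.82, though single members differed, *Ciita* having gaps of -0.75 and 0.25 and *H2-Oa* -0.84 and 1.53. The summed CPM was 10232, 5452, 16952 and 28406.

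Genes of T cells, NK cells and B cells had positive median differences, which all turned negative with ribosomal centring, as did that of all genes (-0.98). A bleomycin library was most often the odd library. Of 20 T cell genes, 12 had a difference of at least 1 and 1 of -1 or lower. The median difference of 1.06 was 0.59 with the correction and -0.07 with ribosomal centring, where its direction flipped, and BLEO-HPS1 was the odd library for 18. *Cd3d* of the receptor complex had a CPM of 88.6, 65.2, 82.4 and 195 and ratios of -0.10 and 1.58, and *Cd28*, the costimulatory receptor gene, went the other way with 71.1, 86.9, 48.0 and 26.4 and ratios of -0.57 and -1.72 (difference -1.15, -0.45 with the correction). The T cell list summed to 1809, 1579.9, 1769 and 3024 CPM, with *Trbc2* of the T cell receptor the most abundant per kilobase in every library. Of 20 genes of NK cells and ILC1s, 7 had a difference of at least 1 and 0 of -1 or lower, with a median of 0.60 (-0.53 with ribosomal centring) and a summed CPM of 473, 564, 239.5 and 729. Here BLEO-WT was the odd library for 12 genes (all genes, 11.5%). The granzyme gene *Gzma* had 58.2, 87.3, 23.5 and 141 CPM and fell in WT alone (-1.31 against 0.69), and the chemokine gene *Ccl5* had 82.9, 76.1, 45.9 and 167 and rose in *Hps1*-/- alone (-0.85 against 1.13). With the correction the ratios of *Ccl5* were -1.02 and 0.05 and its difference went from 1.99 to 1.07. The NK receptor gene *Klra8* fell in both genotypes, with 3.55, 11.0, 1.16 and 2.56 CPM and ratios of -1.59 and -2.09. *Cxcr3*, the receptor of Cxcl9 on activated T and NK cells, had 35.6, 23.4, 18.4 and 70.5 CPM and a difference of 2.54 (2.43 to 2.66).

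B and plasma cell genes outside the immunoglobulin loci had a difference of at least 1 for 9 of 21 and of -1 or lower for 1, with a median of 0.88 (-0.25 with ribosomal centring). *Mzb1*, a chaperone gene of antibody-secreting cells, had a CPM of 3.69, 2.77, 3.18 and 17.4 and rose in *Hps1*-/- alone, with a difference of 2.86 (2.55 to 3.19) that was 1.99 with the correction. *Cd79b*, part of the B cell receptor, had 18.0, 17.5, 20.5 and 81.7 CPM and ratios of 0.18 and 2.22 (difference 2.04, 1.33 with the correction). *Jchain*, which joins the subunits of polymeric antibodies, had 78.3, 34.6, 13.1 and 48.1 CPM and differed from both in that BLEO-WT was low. It fell in WT alone (-2.58 against 0.48, difference 3.05), with a PBS gap of -1.18 and a larger bleomycin gap of 1.87. The list summed to 656, 631, 609 and 994 CPM, and *Xbp1* was the most abundant per kilobase in every library.

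Among the 1778 genes that rose in *Hps1*-/- alone, *Apod* and *Penk* were named by size together with *Oas1g* and *Mzb1*. *Apod* (ENSMUSG00000022548 on chromosome 16 from 31296192 to 31314808, minus strand), the apolipoprotein D gene of adventitial fibroblasts, had a CPM of 2.59, 2.08, 4.09 and 22.2 and ratios of 0.65 and 3.40, a difference of 2.75 (2.42 to 3.10). *Penk* (ENSMUSG00000045573 on chromosome 4 from 4133531 to 4138819, minus strand), the precursor of enkephalin, had 3.12, 1.92, 2.95 and 12.5 CPM and a difference of 2.77 (2.43 to 3.14). For both, the 3 other libraries lay close together and BLEO-HPS1 stood apart, with bleomycin gaps of 2.43 and 2.08. Of 27 fibroblast genes outside the matrix itself, 13 had a difference of at least 1 and 1 of -1 or lower, with a median of 0.98 (-0.14 with ribosomal centring) and a summed CPM of 1961, 1872, 2197 and 3176. *Pi16*, a marker of adventitial fibroblasts, had 52.8, 40.6, 48.8 and 192 CPM and rose in *Hps1*-/- alone by 2.24. *Pdpn*, which encodes podoplanin, rose in both genotypes, with 9.74, 14.9, 101 and 93.1 CPM and ratios of 3.38 and 2.64 (corrected difference -1.04). Matrix genes had a difference of at least 1 for 28 of 62 and of -1 or lower for 0, with a median of 0.87 that turned to -0.26 with ribosomal centring, and BLEO-HPS1 was the odd library for 53 of them.

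Genes that fell in *Hps1*-/- alone included 3 named genes in which PBS-HPS1 was the highest library. *Apold1* (ENSMUSG00000090698 on chromosome 6 from 134981718 to 134986836, plus strand), an activity-induced gene of endothelial cells, had a CPM of 13.8, 41.9, 22.8 and 8.99. Its ratios were 0.72 and -2.22, a difference of -2.94 (-3.12 to -2.78), with both gaps past 1 (1.60 for PBS and -1.34 for bleomycin). *Slc15a2* (ENSMUSG00000022899 on chromosome 16 from 36750177 to 36784962, minus strand), a peptide transporter gene, had 10.3, 24.0, 6.66 and 2.61 CPM and a difference of -2.55 (-2.85 to -2.28), also with both gaps past 1. *Acod1*, described above, had near-equal PBS levels. The zinc finger gene *Zfp871* had 16.9, 28.8, 9.86 and 3.36 CPM and a difference of -2.32 (-2.57 to -2.09), and -1.16 with the correction.

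Heat shock genes encode proteins that refold or hold damaged proteins. PBS-HPS1 was the odd library for 4 of 20, near the share of all genes (21.9%). It was the highest library for 10, for which no share over all genes is given. *Hspa1b*, an inducible Hsp70 gene, had a CPM of 108, 304, 75.5 and 56.5, with ratios of -0.51 and -2.43. The second inducible copy, *Hspa1a*, with which reads can be shared, had 91.4, 199, 88.7 and 84.2 CPM, and the Hsp110 gene *Hsph1* had 74.5, 186, 41.2 and 31.8. All 3 fell in *Hps1*-/- alone, and PBS-HPS1 was the odd library for each. *Hspa8*, the constitutive form, had 1803, 2294, 2308 and 2080.0 CPM and a difference of -0.50. *Serpinh1*, the collagen chaperone gene, had 34.7, 59.8, 35.2 and 177 CPM and a difference of 1.54 (0.999 with the correction). Smaller positive differences were found for several members, among them *Hspe1* (0.59), *Hspb8* (0.45) and *Fkbp4* (0.45). Over 20 genes, 6 had a difference of -1 or lower and 1 of at least 1, with a median of -0.49 (-0.32 with the correction).

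In the class of rises larger in *Hps1*-/-, some genes were set by PBS and some by bleomycin. *Saa3* (ENSMUSG00000040026 on chromosome 7 from 46711998 to 46715700, minus strand), an acute phase gene of inflamed lung, had a CPM of 1.30, 0.455, 14.6 and 25.2. It rose by 3.47 in WT and 5.71 in *Hps1*-/-, a difference of 2.24 (1.76 to 2.84), and the PBS gap of -1.46 was past 1 while the bleomycin gap of 0.78 was not. *S100a4* (ENSMUSG00000001020 on chromosome 3 from 90603771 to 90606045, plus strand), a calcium-binding protein gene of motile leukocytes and fibroblasts, had 115, 43.6, 232 and 354 CPM and a difference of 2.01 (1.95 to 2.07), 1.18 with the correction, and was also set by the PBS gap (-1.40). PBS-HPS1 was the lowest library for both genes. *Scara3* (ENSMUSG00000034463 on chromosome 14 from 65919394 to 65953935, minus strand), a scavenger receptor gene, had 1.18, 2.17, 3.11 and 25.5 CPM and a difference of 2.16 (1.73 to 2.57), and *Clec11a*, a growth factor gene of stromal cells, 0.988, 1.77, 2.53 and 17.5 CPM and 1.96 (1.49 to 2.41). These were set by bleomycin gaps of 3.02 and 2.78. Falls larger in *Hps1*-/- that passed the limit for naming were led by *Slc5a3*, a myo-inositol transporter gene, with 5.02, 15.2, 2.21 and 1.16 CPM, a PBS gap of 1.59 and a difference of -2.51 (-1.40 with the correction). It overlaps *Mrps6*, so its reads are uncertain.

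The voltage-gated potassium channel gene *Kcna3* (ENSMUSG00000047959 on chromosome 3 from 107036169 to 107038070, plus strand) of activated lymphocytes had the next largest difference among these falls. Its CPM was 39.1, 56.4, 12.4 and 4.12, and its ratios were -1.65 and -3.77, a difference of -2.12 (-2.34 to -1.91) that was -2.77 with the correction. *Reps2*, an endocytosis adaptor gene, had 14.3, 18.9, 5.31 and 1.77 CPM and a difference of -1.97, and *Prpf39*, a splicing factor gene that overlaps *Fkbp3*, 31.3, 40.0, 13.3 and 4.37 CPM and -1.95. BLEO-HPS1 was the lowest library for all 3, and with the correction the latter 2 differences were -0.94 and -1.15. The corrected WT ratios of *Slc5a3*, *Reps2* and *Prpf39* were -0.37, -0.83 and -0.47, no longer falls.

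Few genes rose or fell in both genotypes with a larger size in WT. *Cfd* (ENSMUSG00000061780 on chromosome 10 from 79890853 to 79892655, plus strand), which encodes complement factor D or adipsin, had 23, 53, 908 and 304 reads and a CPM of 0.295, 0.535, 11.6 and 4.81. Its ratios were 5.18 and 3.11, a difference of -2.07 (-2.92 to -1.36). *Slc36a2*, an amino acid transporter gene, had 1.42, 1.89, 44.7 and 21.0 CPM and a difference of -1.49 (-1.86 to -1.14), and *Rnase2a*, of a family of near-identical eosinophil-associated ribonucleases, 0.282, 0.131, 21.7 and 4.57 CPM and -1.27 (-2.22 to -0.01). In these 3 genes BLEO-WT was the odd library. *Map3k6* (ENSMUSG00000028862 on chromosome 4 from 133240818 to 133252929, plus strand), a stress-activated kinase gene, was set by PBS instead, with 7.25, 20.1, 42.8 and 46.5 CPM, a PBS gap of 1.47, a bleomycin gap of 0.12 and a difference of -1.35 (-1.51 to -1.20). With the correction its *Hps1*-/- ratio was 0.74. The only fall that could be named was the integrin αD gene *Itgad*, which overlaps *Cox6a2*. It had 20.9, 7.77, 2.88 and 3.58 CPM, ratios of -2.85 and -1.11 and a PBS gap of -1.42, against 0.31 with bleomycin.

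Concordant rises included genes of macrophages and of the matrix. *Ecm1* (ENSMUSG00000028108 on chromosome 3 from 95734147 to 95739569, minus strand), extracellular matrix protein 1, had 44.0, 32.7, 662 and 503 CPM and near-equal rises of 3.91 and 3.94 (difference 0.03, -0.04 to 0.10). *Fcna*, the ficolin A gene of macrophages, had 3.93, 2.34, 66.8 and 62.2 CPM and rises of 4.08 and 4.72, and *Tmem37* 3.63, 2.82, 49.5 and 49.1 CPM and rises of 3.76 and 4.11. *Syngr1* and *Timp1* were also named for concordant rises, but they overlap *Rpl3* and *Syn1*, and the strand of counting is not given in the sources used here. *Timp1*, with 0.808, 1.65, 11.2 and 41.4 CPM and rises of 3.75 and 4.63, kept a gap between genotypes past 1 in both treatments (1.004 and 1.88). Concordance therefore did not mean equal levels.

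Genes of lipid-associated macrophages and lysosomes held few differences past 1. Of 17 lipid-associated macrophage genes, 12 were concordant (all genes, 6.98%), 11 of them rises, and 0 had a difference past 1 in size, with median ratios of 1.98 in WT and 2.33 in *Hps1*-/-. Their summed CPM was 7509, 5529.5, 19538 and 17177, with the tetraspanin gene *Cd9* the most abundant per kilobase in both PBS libraries and *Ctsd* in both bleomycin libraries. The median difference was 0.26, near that of all genes (0.15), and -0.12 with total counts. *Gpnmb*, a glycoprotein gene of lipid-laden macrophages, had 134, 102, 1552 and 859 CPM and ratios of 3.54 and 3.07, and *Spp1*, which encodes osteopontin, 114, 88.4, 907 and 444 CPM and ratios of 2.99 and 2.33. Of 36 lysosomal genes, 14 were concordant (all genes, 6.98%) and 2 had a difference of at least 1, with median ratios of 0.93 and 1.57 and a median difference of 0.40 (0.21 with the correction and -0.73 with ribosomal centring). *Psap*, the saposin precursor gene, had 5048, 3315, 12008 and 12568 CPM and a difference of 0.67. The genes mutated in Hermansky-Pudlak syndrome and their partners, *Hps1* included, had a difference of at least 1 for 3 of 17, near the share of all genes (16.3%), with a median of 0.31 (0.05 with the correction and -0.07 with total counts).

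Concordant falls included genes of basophils and alveolar macrophages. Of the eosinophil genes analysed here, *Ccr3*, *Il5ra* and *Ear1* were concordant falls, and *Prg2*, *Ear2* and *Alox15* were not. *Ear1* was also listed as an alveolar macrophage gene. *Fabp1* (ENSMUSG00000054422 on chromosome 6 from 71199827 to 71205023, plus strand), a fatty acid-binding protein gene of alveolar macrophages, had a CPM of 38.5, 30.9, 2.33 and 1.31 and ratios of -4.03 in WT and -4.53 in *Hps1*-/-, a difference of -0.50 (-0.91 to -0.12) that was -1.14, and no longer concordant, with the correction. *Ear1*, an eosinophil-associated ribonuclease gene with near-identical copies, had 214, 165, 26.7 and 14.8 CPM, a difference of -0.47 (-0.96 with the correction) and a ratio of -3.47 in *Hps1*-/-. *Cpne5* (ENSMUSG00000024008 on chromosome 17 from 29155556 to 29238167, minus strand), a calcium-dependent membrane-binding protein gene, had 92.1, 77.8, 8.26 and 8.58 CPM and ratios of -3.47 and -3.18, and *Cyp11a1*, the first enzyme of steroid synthesis, 13.5, 14.8, 1.66 and 1.66 CPM and ratios of -3.005 and -3.13. In these 4 genes neither gap was past 1, though after bleomycin *Ear1* and *Fabp1* had gaps of -0.84 and -0.82. *Dnah11*, which overlaps *Cdca7l*, had 14.8, 15.6, 1.45 and 0.839 CPM and ratios of -3.32 and -4.17. Of 21 alveolar macrophage genes, 7 were concordant (all genes, 6.98%) and 3 had a difference of -1 or lower, with a summed CPM of 9939, 8382, 7378 and 4434, most from *Chil3* among single genes, and a median difference of -0.47 (-0.71 with the correction). The mannose receptor gene *Mrc1* had 647, 621, 702 and 266 CPM and fell in *Hps1*-/- alone (0.12 against -1.23), though its difference of -1.34 was -0.58 with the correction. Of 12 compared genes of the mitochondrial genome, 9 were concordant (all genes, 6.98%), with median ratios of -1.14 and -1.30 that were -0.57 and -0.67 with the correction, under the threshold.

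The list of ILC2 genes lay near all genes. Of 25 compared, 6 had a difference of at least 1 and 3 of -1 or lower (all genes, 16.3% and 11.2%), with a median of 0.08, -0.04 with the correction and -0.30 with total counts. *Thy1*, a sort marker that fibroblasts also carry, had a CPM of 306, 206, 224 and 551 and rose in *Hps1*-/- alone (-0.46 against 1.42, difference 1.88), but with the correction its *Hps1*-/- ratio was 0.55 and its difference 1.21. *Icos*, the second sort marker, had 79.9, 77.5, 51.4 and 32.1 CPM and a difference of -0.63, and *Il1rl1*, the third, 40.9, 39.9, 37.3 and 23.8 CPM and -0.61. *Rora*, a transcription factor gene that ILC2s need, had 63.9, 78.4, 25.2 and 13.2 CPM and fell more in *Hps1*-/- (-1.34 against -2.57), but its difference of -1.23 was -0.09 with the correction. *Cxcr6*, a chemokine receptor gene of tissue lymphocytes, fell in WT alone, with 71.9, 32.4, 16.9 and 20.2 CPM and ratios of -2.09 and -0.68, and PBS-WT was its odd library. The list of type 2 cytokine and IL-2 signalling genes had a median difference of -0.06, with 1 of 26 genes at 1 or above and 3 at -1 or lower. *Cish*, a feedback inhibitor gene of IL-2 signalling, rose alike in both genotypes, with 60.3, 59.3, 122 and 120.1 CPM and ratios of 1.01 and 1.02.

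Complement genes mixed the patterns seen above. Of 23 compared, 10 had a difference of at least 1 and 2 of -1 or lower, with a median of 0.84 (-0.29 with ribosomal centring). *C3*, the central component, had a CPM of 396, 248, 350.3 and 881 and rose in *Hps1*-/- alone (-0.18 against 1.83, difference 2.00, 1.97 to 2.04). *Cfb*, factor B of the alternative pathway, had 17.1, 5.88, 17.3 and 29.1 CPM, a PBS gap of -1.54, a bleomycin gap of 0.75 and a difference of 2.28 (2.11 to 2.46). *Serping1*, the C1 inhibitor gene, rose in both and more in *Hps1*-/-, with 16.5, 27.3, 38.4 and 186 CPM and a difference of 1.55 (1.01 with the correction). *Cfb* thus rested on a low PBS-HPS1 library, and *C3* and *Serping1* on a high BLEO-HPS1 library.

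Cell cycle and glycolysis genes had positive median differences that turned negative with ribosomal centring, as did that of all genes (-0.98). Of 38 cell cycle genes, 18 had a difference of at least 1 and 0 of -1 or lower, with median ratios of 0.35 in WT and 1.44 in *Hps1*-/- and a median difference of 0.94, 0.97 with the correction and -0.19 with ribosomal centring. *Mcm5*, a subunit of the replicative helicase, had a CPM of 49.4, 36.1, 62.3 and 160.1 and a difference of 1.81 (1.73 to 1.896). *Mki67*, a proliferation marker with a long transcript, had 66.8, 62.6, 46.8 and 40.3 CPM and a difference of -0.12, 0.78 with the correction. Of 30 glycolysis and hypoxia genes, 11 had a difference of at least 1 and 1 of -1 or lower, with a median of 0.68 (0.42 with the correction and -0.45 with ribosomal centring). *Gapdh* had 913, 685, 1449 and 2383 CPM and a difference of 1.13 (0.91 with the correction), while *Vegfa*, the vascular growth factor gene, had 55.1, 71.4, 82.7 and 39.2 and a difference of -1.45.

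Short and long transcripts lay on opposite sides, and much of this went with the correction. The correction takes out trends with length and GC content by construction, and the source of these trends was not tested. All 77 cytosolic ribosomal protein genes, which are short, were compared, and 68 had a difference of at least 1, with median ratios of 0.39 and 1.70 and a summed CPM of 57040.5, 41421, 75440.2 and 133513. With the correction 15 did, and the median difference went from 1.28 to 0.62. Of 31 chromatin and transcriptional regulators with large transcripts, 15 had a difference of -1 or lower and 0 of at least 1, with median ratios of -0.24 and -1.43. With the correction 1 did, and the median went from -0.97 to -0.14. BLEO-HPS1 was the odd library for 67 of the ribosomal protein genes and 27 of the regulators. The part of cell content in these values was not tested.

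**Figure D4:**
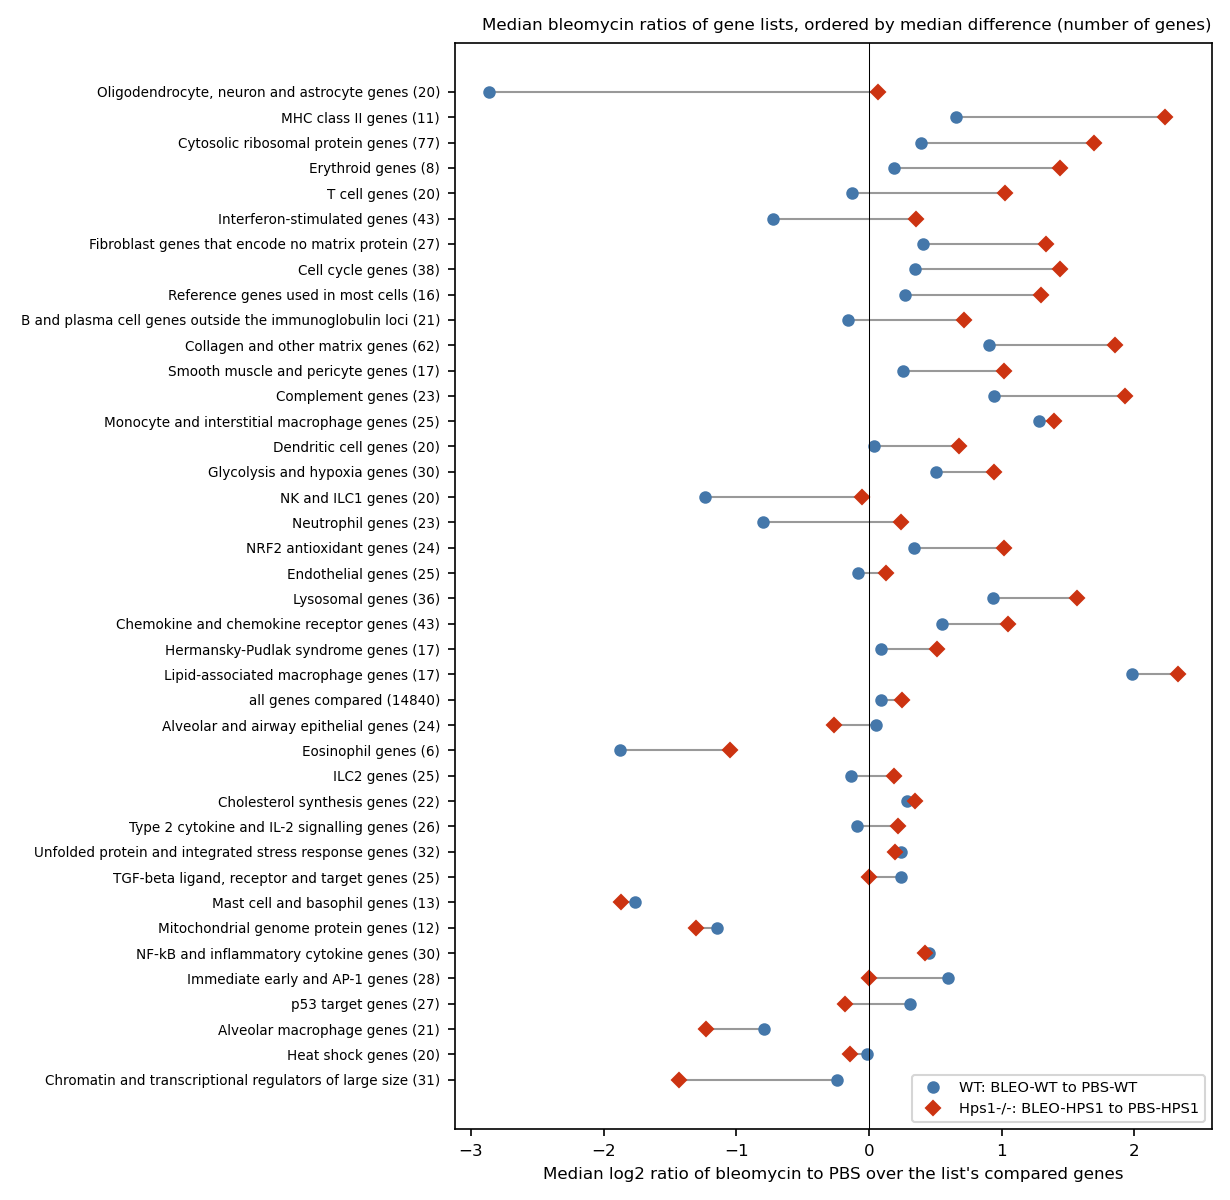
Median log2 bleomycin ratio of each gene list in WT (blue circles) and *Hps1*-/- mice (red diamonds), ordered by the median difference, with the number of genes compared in parentheses. All lists were chosen with earlier results of these data known. The list of oligodendrocyte, neuron and astrocyte genes, chosen after values were seen, has medians of -2.86 and 0.07, but 8 of its 20 genes passed the limit of 1 CPM in PBS-WT only, and over the other 12 the medians were -1.54 and 0.07. With ribosomal centring the median difference turned negative for 24 of the 28 lists in which it was positive, and with total counts for 7. Such a scaling shifts the differences of all genes alike, and with ribosomal centring the median of all genes was -0.98.

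The p53 target list had a difference of -1 or lower for 8 of 27 genes and of at least 1 for 3 (all genes, 11.2% and 16.3%), and its median of -0.47 was -0.16 with the correction. *Mdm2*, which encodes the ubiquitin ligase of p53, had a CPM of 88.4, 94.0, 84.4 and 29.3 and fell in *Hps1*-/- alone (-0.07 against -1.68), and *Cdkn1a*, the p21 gene, had 274, 327, 702 and 604 CPM and a difference of -0.47 (-1.02 with the correction). Endothelial genes were past 1 in each direction for 2 of 25 and epithelial genes higher for 1 and lower for 4 of 24, with small medians of 0.48 and 0.13 (0.17 and -0.32 with the correction, and -0.65 and -0.996 with ribosomal centring). TGF-β ligand, receptor and target genes were lower for 4 of 25 and higher for 0 (all genes, 11.2% and 16.3%), with a median of -0.10 that was 0.25 with the correction. Chemokines and their receptors were higher for 12 and lower for 3 of 43, with a median of 0.35 (-0.02 with total counts). Of 8 erythroid genes, 5 were higher, with a median of 1.22 (0.63 with the correction) and a summed CPM of 237, 290.4, 279 and 787, and the globin copies among them can share reads. Dendritic cell genes were higher for 6 and lower for 1 of 20, smooth muscle and pericyte genes for 6 and 1 of 17, and antioxidant targets of NRF2 for 6 and 1 of 24, with medians of 0.75, 0.86 and 0.48 that were 0.61, 0.25 and 0.10 with the correction and turned to -0.38, -0.27 and -0.65 with ribosomal centring. Genes of the unfolded protein and integrated stress responses had a median of -0.08, and those of cholesterol synthesis 0.01 (-0.16 and 0.23 with the correction).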

How the data were processed

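The deposited counts of reads per gene, made by the authors from 4 RNA-Seq libraries, were used as they stood, and the aligner, the counting program and the genome build were not given in the sources used here. Gene names, positions, lengths and GC content came from GENCODE M21 (GRCm38). Libraries were scaled with TMM factors (edgeR 4.0.16, R 4.3.3), log2 CPM had a prior count of 2, and genes with at least 1 CPM in any library were compared at a log2 threshold of 1, in Python 3.11.15 with pandas 2.3.3. No test was possible with 1 library per group. Named genes were protein coding genes with 10 CPM in the highest library and 10 reads in every library, with the largest differences in each class (for concordant genes, the largest smaller ratio), and the abundant or changed members of each list, and some of these genes are not analysed here. Members and lists were chosen with earlier results of these data known. Alternatives were total counts, DESeq2 1.42.0 size factors, TMM without immunoglobulin genes, ribosomal centring, prior counts of 0.5 and 10, other filters, a log2 threshold of 2 and a loess correction (span 0.3) for GC content and length of the longest transcript. The steps were tested on simulated data.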

Additional observations from a re-analysis of the deposited data

Results flagged for a closer look

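Each result here was noted because the WT and *Hps1*-/- libraries moved in opposite directions with bleomycin, with 1 library per group, and no difference was tested. These directions are those of TMM scaling. With total counts both median ratios of interferon-stimulated genes were negative. With ribosomal centring the *Hps1*-/- ratios of *Plac8*, *Ly6c2*, *Lst1* and *Treml4* were negative, as were their WT ratios. For single genes both ratios were past 1, and the difference was 5.34 for *Ltf*, 5.13 for *Ngp*, 3.46 for *Plac8*, 2.77 for *Lst1*, 2.36 for *Ly6c2*, 2.34 for *Treml4*, -2.32 for *Nr4a2* and -2.17 for *Plxna2*. For gene lists the median ratios had opposite signs, whatever their size. The median difference was 0.0751 for ILC2 genes, -0.0628 for type 2 cytokine and IL-2 signalling genes, 1.06 for T cell genes, 0.56 for neutrophil genes, 0.88 for B and plasma cell genes outside the immunoglobulin loci and 0.13 for alveolar and airway epithelial genes. It was 0.48 for endothelial genes, 1.02 for interferon-stimulated genes, -0.47 for p53 target genes and 2.73 for oligodendrocyte, neuron and astrocyte genes, a list chosen after values were seen, of which 8 of 20 genes passed the limit of 1 CPM in PBS-WT only (1.71 over the other 12). With a correction for GC content and transcript length, *Ltf*, *Ngp* and *Ly6c2* still had both ratios past 1 in opposite directions, with differences of 5.104, 4.54 and 2.31, and *Plac8*, *Lst1*, *Treml4*, *Nr4a2* and *Plxna2* did not. The corrected median was 1.01 for interferon-stimulated genes, 0.85 for B and plasma cell genes, 0.59 for T cell genes and 0.10 for neutrophil genes. It was 0.17 for endothelial genes, -0.32 for epithelial genes and -0.16 for p53 target genes. For all 20 oligodendrocyte, neuron and astrocyte genes it was 2.86, which includes the 8 that passed the limit in PBS-WT only. Cells per library and the content of other cell types differ along the same libraries, and their shares in these values cannot be told apart.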

How the results depend on the processing

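DESeq2 size factors, TMM without immunoglobulin genes, a prior count of 0.5 and ratios centred on the median gene, an alternative chosen after seeing the data, kept all 11 counts within 1.5 times of those reported. Of the 49 genes that the naming rule chose within the classes, 40 kept the sign of their difference under all 7 scalings, prior counts and corrections. With total counts, 1050 genes were higher, 3347 lower, 769 larger in *Hps1*-/- and 64 larger in WT. Ribosomal centring gave 300 higher, 7325 lower, 51 opposite, 5322 in *Hps1*-/- alone, 1642 larger in *Hps1*-/-, 67 larger in WT, 4956 with a bleomycin gap alone and 6469 with BLEO-HPS1 as the odd library, and reversed the median difference of T cell genes to -0.0672 and of interferon-stimulated genes to -0.112. The median difference of all genes with ribosomal centring was -0.98. A prior count of 10 left 26 genes larger in WT. The GC and length correction gave 1478 higher, 913 lower, 1393 in *Hps1*-/- alone, 178 larger in *Hps1*-/-, 824 with a bleomycin gap alone and 1382 with BLEO-HPS1 as the odd library. For these settings the cause was not tested. Filters and the threshold change the counts by construction, through more or fewer genes. With no filter, 5320 genes were higher, 9345 lower, 756 opposite, 3211 concordant, 8974 in *Hps1*-/- alone, 2322 in WT alone, 1091 larger in *Hps1*-/- and 145 larger in WT, with a PBS gap alone in 5643, a bleomycin gap alone in 4166 and BLEO-HPS1 as the odd library in 5389. With at least 10 reads in every library, 27 were larger in WT. With 10 CPM in any library, 1518 were higher, 985 lower, 14 opposite, 574 concordant, 81 in WT alone, 177 larger in *Hps1*-/- and 8 larger in WT, with a PBS gap alone in 85 and a bleomycin gap alone in 1025. With a log2 threshold of 2, 346 were higher, 220 lower, 22 opposite, 218 concordant, 321 in *Hps1*-/- alone, 91 in WT alone, 10 larger in *Hps1*-/- and 3 larger in WT, with a PBS gap alone in 99, a bleomycin gap alone in 150 and BLEO-HPS1 as the odd library in 310. No count could be made without a library, since the difference needs all 4. The absence of replicates, the rise of cell numbers from PBS-WT to BLEO-HPS1, the strand and copies to which reads were assigned, and transcripts of other cell types limit every value.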
